A study of Mus musculus with 6 samples.

Results

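The 7 genes described here act on blood clotting and clot breakdown in the glomerulus, the capillary tuft that filters blood in the kidney. They are F3, Thbd, Plat, Procr, Tfpi, F8 and Vwf, taken by name from the 49492 gene names in the count tables. The mice were males of the outbred CD1 IGS strain, aged 8 weeks, with no other genotype or treatment named in any group. Cells dissociated from glomeruli and fixed with 80% methanol in PBS went into 4 Drop-seq libraries, in which each droplet barcode marks a cell and each counted molecule is a unique molecular identifier (UMI). The 2 bulk mRNA libraries held whole unfixed glomeruli (500 ng of RNA) and dissociated, methanol-fixed, sorted cells (95 ng of RNA). How many animals went into a library is not given in the labels, so the p-values measure only the spread between these libraries.

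Clotting starts when tissue factor (F3), a cell-surface receptor, meets circulating factor VII, and tissue factor pathway inhibitor (Tfpi) blocks that step. On endothelium, thrombomodulin (Thbd) and the endothelial protein C receptor (Procr) turn thrombin from a clotting enzyme into an activator of the anticoagulant protein C. Factor VIII (F8) speeds thrombin formation and travels bound to von Willebrand factor (Vwf), which also tethers platelets, and tissue plasminogen activator (Plat) starts the dissolution of fibrin. Podocytes, endothelial cells and mesangial cells form the tuft, and parietal epithelial cells line the capsule around it.

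The Drop-seq tables held 15465 barcodes, of which 13993 were kept (300 or more genes detected, mitochondrial share up to 20%), at 816 to 1156 median UMIs per library. Clustering without the 7 genes and 50 other genes of haemostasis gave 16 clusters, named from marker genes as 10371 podocyte-like, 1849 endothelial-like, 988 tubular-like, 394 parietal epithelial-like, 327 mural-like and 64 immune-like cells. The mural-like cluster was led by the renin and smooth muscle genes Ren1, Acta2, Rgs5 and Myh11, with no mesangial marker among its 10 leading genes, although Itga8 (74 UMIs) and Ptn (195 UMIs) were detected. The parietal-like cells carried Dkk3, Pax8 and Cldn1 but almost no Pax2 (1 UMI), and their summed podocyte markers other than Podxl stood at 62.6% ± 12.2 (SD, n = 4) of the podocyte-like level. Of the 6 parietal markers listed, 4 reached 3 UMIs. Their mean level relative to the highest cluster was 0.473, below the 0.574 of the podocyte markers in the same cells. Tubular-like clusters 5 and 6 reached 0.582 and 0.648 for the parietal markers, so the parietal name is tentative. Replicate 4 stood apart: 1157 of the 1242 cells of a podocyte-like cluster led by H2-Q6 came from it. Only 3 kept barcodes occurred in more than 1 library.

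Levels below are CPM: a gene's UMIs were summed over the cells of a type in each library and scaled to all UMIs of those same cells. Each type was tested against the mean of the other 4 with edgeR's quasi-likelihood test at an adjusted p of 0.05. Vwf, with 12 UMIs in kept cells, was too rare to test. In endothelial-like cells 4 of the 6 tested members were higher, where 28.2% of 7591 genes were, and 1 was lower (21.1% of genes). Tubular-like cells had 0 members higher (26.2% of genes) and 4 lower (27.1%). Among podocyte-like cells 2 were higher (25.7%) and 2 lower (20.2%). The parietal-like cells had 3 higher (10.6%) and 2 lower (4.78%), and the mural-like cells had 1 higher (11.9%) and 1 lower (9.71%). The higher mural-like call was Procr, from 17 UMIs. Its fold change against the mean of the other types has no usable estimate, because parietal-like cells had no Procr UMI. Thbd, Procr, F8 and Plat made up the endothelial set, F3 led in parietal-like and podocyte-like cells, and Tfpi was spread over several types. Thbd, Procr and F8 passed the filter on low counts mainly through their endothelial-like sums, as their levels elsewhere were low. Their higher calls there and lower calls elsewhere were thus partly set by that filter, and the counts are a description. The lower calls of Thbd, Procr and F8 outside endothelial-like cells rest on 0 to 36 UMIs each, and the 10 lower calls over all types came to 5 without replicate 1. The third parietal-like call was Plat (log2 fold change 0.46, SE 0.11, adjusted p = 0.0012876), which turned to -0.45 against all other cells summed.

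**Figure D1:**
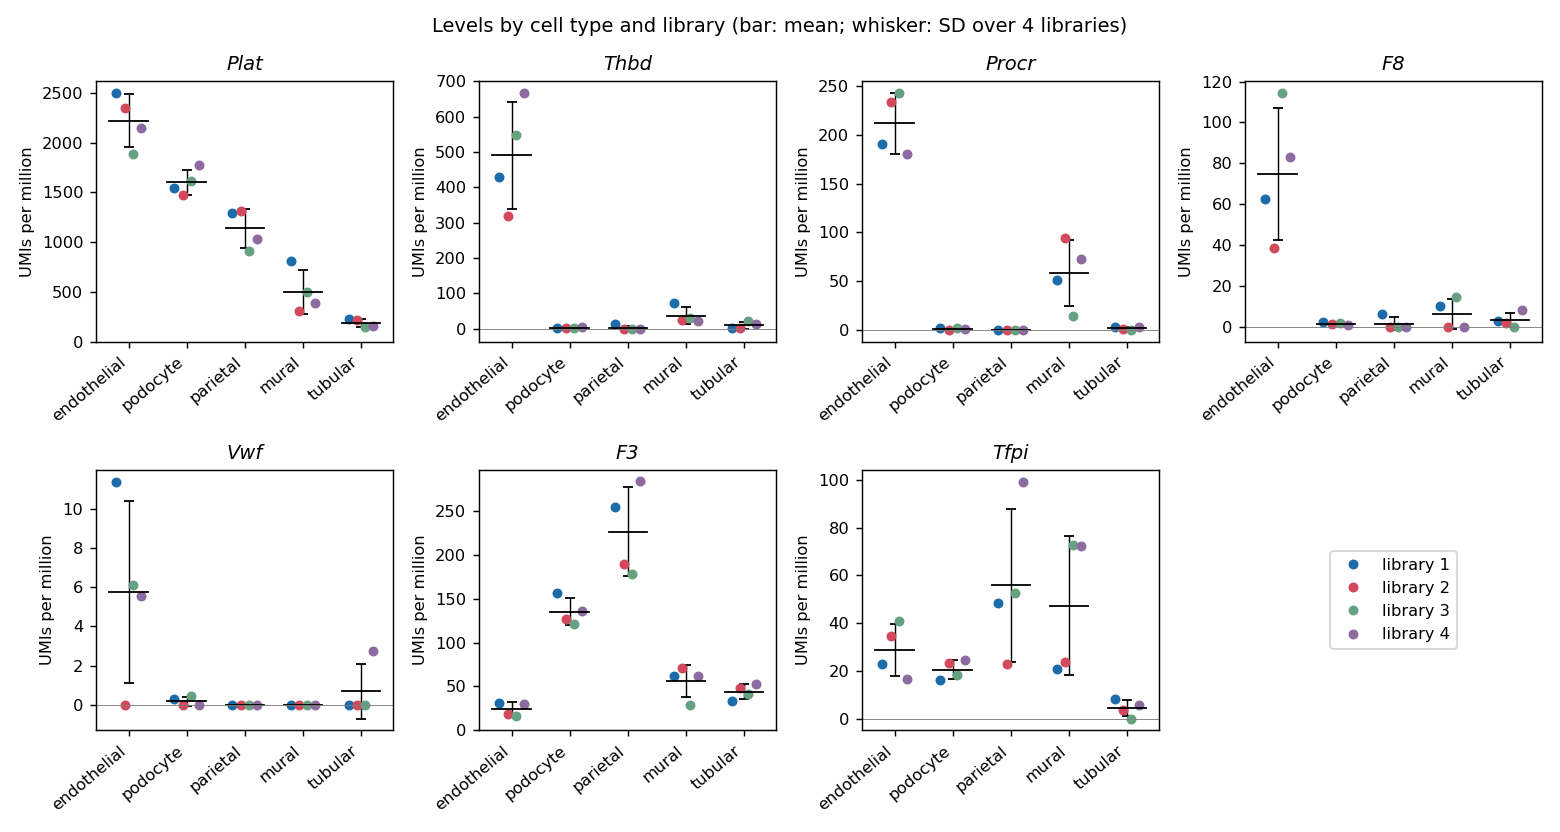
Level in CPM of each gene (y axis, a scale of its own per panel) in 5 cell types (x axis), with a dot for each of the 4 Drop-seq libraries, a bar at their mean and a whisker for their SD. Thbd, Procr and F8 are high in endothelial-like cells, Plat in endothelial-like, podocyte-like and parietal-like cells, and F3 in parietal-like and podocyte-like cells.

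Plat, the serine protease that cuts plasminogen to plasmin, was the most abundant member and the single one at high level in both endothelial-like cells and podocyte-like cells. The gene lies on chromosome 8 at 22757727 to 22782844, plus strand (GENCODE, GRCm38). In endothelial-like cells its level was 2501, 2344, 1889 and 2147 CPM in replicates 1 to 4. The podocyte-like level was 1548, 1477, 1611 and 1772 CPM in the same order. Every endothelial-like value lay above every podocyte-like value, by 1.39 times on the means. Parietal-like cells followed at 1291, 1310, 913 and 1035 CPM, and mural-like cells at 812, 306, 495 and 392 CPM. Tubular-like cells were lowest, at 189 ± 42.0 CPM (SD, n = 4). Among these 5 types no library overlapped with the type next to it in this order. The log2 fold changes against the mean of the other types were 1.78 (SE 0.09, adjusted p = 8.4385e-30) in endothelial-like cells and 1.16 (SE 0.09, adjusted p = 5.6784e-20) in podocyte-like cells. All 10 pairs of cell types differed for Plat by the same test, where the share of genes that did was 25.6%, 35.0%, 59.6% and 61.7% for endothelial-like cells against mural-like, parietal-like, podocyte-like and tubular-like cells. It was 19.9%, 32.9% and 37.5% for mural-like against parietal-like, podocyte-like and tubular-like cells, 6.53% and 37.7% for parietal-like against podocyte-like and tubular-like cells, and 58.3% for podocyte-like against tubular-like cells. The order is thus endothelial-like, podocyte-like, parietal-like, mural-like and tubular-like, with no neighbours that failed to differ.

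Plat was detected in 56.5% of endothelial-like cells (exact 95% binomial interval 54.2 to 58.7) and 73.4% of podocyte-like cells (72.5 to 74.2), at median depths of 640 and 1017 UMIs. After thinning each cell to 500 UMIs, the shares were 49.97% and 52.02%, with 378 and 650 shallower cells left out. The share of tubular-like cells was 20.7%, or 9.36% after thinning. The share was higher in podocyte-like cells although the CPM was lower, so no order is read from it.

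Thbd, the thrombin-binding cofactor of protein C activation, was concentrated in endothelial-like cells. The gene lies on chromosome 2 at 148404466 to 148408188, minus strand. Its endothelial-like level was 430, 318, 550 and 668 CPM in replicates 1 to 4, from 744 UMIs. Mural-like cells had 72.0, 23.5, 29.1 and 20.7 CPM, and podocyte-like cells 1.57, 1.40, 3.54 and 5.75 CPM. The lowest endothelial-like library was above the highest library of any other type. The log2 fold change of endothelial-like over mural-like cells was 3.87 (SE 0.47, adjusted p = 2.5016e-20) and over podocyte-like cells 7.33 (SE 0.29, adjusted p = 9.433e-63). Thbd was detected in 26.2% of endothelial-like cells and in 0.328% of podocyte-like cells, although podocyte-like cells were the deeper ones. Thinned to 500 UMIs, the shares were 20.8% and 0.144%. Mural-like cells also exceeded podocyte-like cells, by a log2 fold change of 3.46 (SE 0.54, adjusted p = 5.3112e-06). The summed endothelial markers in mural-like cells stood at 8.51% ± 3.97 (SD, n = 4) of their endothelial-like level and Thbd at 8.13% ± 6.01. The part of endothelial RNA in the mural-like value was not tested.

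Procr, the receptor that presents protein C to the thrombin and thrombomodulin complex, shared the endothelial-like peak with Thbd but had a larger mural-like level relative to it. The gene lies on chromosome 2 at 155751117 to 155755471, plus strand. Endothelial-like cells had 191, 234, 243 and 180 CPM in replicates 1 to 4, from 312 UMIs. Mural-like cells had 51.4, 94.0, 14.5 and 72.3 CPM, from 17 UMIs in 15 cells. The groups did not overlap, and the log2 fold change was 2.06 (SE 0.42, adjusted p = 6.901e-07). Podocyte-like cells stood at 1.25 ± 0.945 CPM (SD, n = 4) and tubular-like cells had 3 UMIs. No Procr UMI was seen in 394 parietal-like cells, which makes the endothelial-like level at least 32.9-fold higher, taking 3 UMIs over the 4 libraries as the floor. Mural-like cells exceeded podocyte-like cells in every library, with a log2 fold change of 5.37 (SE 0.59, adjusted p = 5.103e-12). Relative to endothelial-like cells, mural-like Procr stood at 28.3% ± 16.2 and the endothelial markers at 8.51% ± 3.97 (SD, n = 4). Replicate 3 was the exception, with Procr at 5.98% and the markers at 4.64%.

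F8 and Vwf, the factor VIII gene and the gene of its carrier protein, were the rarest members, with 146 and 12 UMIs in the kept cells. F8 lies on chromosome X at 75172715 to 75382615, minus strand, where Fundc2 and Gm6039 overlap it on the other strand and Gm8522 on its own, so reads of these genes may not be fully separated. Its level in endothelial-like cells was 62.6, 38.3, 114 and 83.1 CPM in replicates 1 to 4, from 118 UMIs in 77 cells. In podocyte-like cells it was 2.19, 1.17, 1.77 and 1.02 CPM. No other type reached the lowest endothelial-like library. The endothelial-like log2 fold change was 5.45 over podocyte-like cells (SE 0.44, adjusted p = 8.0936e-28) and 4.27 over tubular-like cells (SE 0.70, adjusted p = 3.3366e-13). Mural-like cells had 2 F8 UMIs and parietal-like cells 1. Vwf lies on chromosome 6 at 125546774 to 125686679, plus strand. It gave 4, 0, 3 and 2 UMIs in the endothelial-like cells of replicates 1 to 4, 2 UMIs in podocyte-like cells and 1 in tubular-like cells, and the table of replicate 2 had no Vwf row. The pooled endothelial-like level of 6.15 CPM had an exact 95% Poisson interval of 2.81 to 11.7, and the podocyte-like level of 0.158 CPM one of 0.0191 to 0.569. These intervals cover counting error only.

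F3, the cell-surface receptor that starts the clotting cascade, was high in parietal-like and podocyte-like cells and low in endothelial-like cells, where Thbd peaked. The gene lies on chromosome 3 at 121723537 to 121735048, plus strand. Parietal-like cells had 255, 189, 178 and 284 CPM in replicates 1 to 4, and podocyte-like cells 156, 127, 121 and 136 CPM. Endothelial-like cells had 31.3, 19.2, 16.4 and 30.5 CPM. Every parietal-like library was above every podocyte-like library, and every podocyte-like library above every library of the other 3 tested types. The log2 fold change against the mean of the other types was 1.95 (SE 0.20, adjusted p = 4.6936e-14) in parietal-like cells, 1.13 (SE 0.15, adjusted p = 5.6879e-13) in podocyte-like cells and -1.91 (SE 0.28, adjusted p = 7.0624e-11) in endothelial-like cells. Parietal-like over podocyte-like cells gave 0.66 (SE 0.18, adjusted p = 0.010499), a 1.68-fold ratio of the mean levels. Mural-like cells at 55.8 ± 18.3 CPM and tubular-like cells at 43.9 ± 8.60 CPM (SD, n = 4) did not differ beyond their spread (adjusted p = 0.87456). The mural-like and endothelial-like levels missed the threshold too (log2 difference of endothelial-like over mural-like cells -1.01, SE 0.45, adjusted p = 0.10187).

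Within the podocyte-like cells 2 of the larger clusters are given as an example, chosen after their values were seen. In cluster 9 F3 stood at 64.2, 50.4, 54.1 and 66.6 CPM in replicates 1 to 4, and in cluster 2 at 167, 140, 164 and 200 CPM. These clusters, of 1826 and 1783 cells, did not overlap for F3. Plat was higher in cluster 9 than in cluster 2, at 1875 ± 92.6 CPM in cluster 9 and 1528 ± 116 CPM in cluster 2 (SD, n = 4), also without overlap. In cluster 4, the one drawn mainly from replicate 4, that replicate had 119 CPM of F3 and 1849 CPM of Plat. Cluster 8 had low F3 as well (96.8 ± 28.1 CPM) but Plat at 1520 ± 124 CPM (SD, n = 4), close to cluster 2, so F3 and Plat did not move oppositely in every cluster. The cluster means are a description and were not tested.

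The 250 bases before the start of F3 and of Procr are shown because these genes share an AP-1 motif in this window and differ in their GC boxes. In endothelial-like cells F3 was lower and Procr higher than in the mean of the other types. Capitals mark every match to the 6 motifs searched on both strands. Sequences and start sites are those of RefSeq for GRCm38.p6, which had entries for F3, Procr, Tfpi (2 starts) and F8.
F3, chr3:121723287-121723536, plus strand: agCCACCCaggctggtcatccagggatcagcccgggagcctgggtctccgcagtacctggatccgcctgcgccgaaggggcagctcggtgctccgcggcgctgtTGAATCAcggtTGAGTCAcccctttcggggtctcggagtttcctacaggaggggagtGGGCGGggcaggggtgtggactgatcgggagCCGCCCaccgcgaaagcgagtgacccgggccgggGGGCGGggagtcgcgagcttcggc
Procr, chr2:155750967-155751216, plus strand: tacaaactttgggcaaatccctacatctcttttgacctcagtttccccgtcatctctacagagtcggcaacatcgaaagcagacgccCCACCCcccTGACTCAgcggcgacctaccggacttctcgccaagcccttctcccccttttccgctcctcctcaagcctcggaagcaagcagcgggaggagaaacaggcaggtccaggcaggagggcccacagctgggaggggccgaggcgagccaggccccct
The F3 window held the AP-1 motif TGANTCA at positions -146 and -135 (first base, counted back from the start site), and the Procr window held it at -154. Of all 32851 promoters that were searched 6.75% have an AP-1 match. The F3 window also held the GC box GGGCGG 3 times, which occurs in 32.7% of promoters, and the Procr window held none. Each of them had 1 match to the KLF motif CCACCC (28.1% of promoters). No match to the CRE motif TGACGTCA (1.55% of promoters), the TATA box TATAAA (12.4%) or the ETS motif CCGGAA (12.03%) stood in either window. Of the Tfpi starts, both had 1 GC box and the upstream one a TATA box, and the F8 window had no match to any of the 6. None of these motifs overlapped another in the printed windows. Their G and C content was 70.0% for F3, 61.6% for Procr and 42.8% for F8, against a median of 52.4% over all promoters.

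Tfpi, the inhibitor of the tissue factor and factor VII complex, was low in every type and did not follow F3. The gene lies on chromosome 2 at 84432855 to 84476775, minus strand. Parietal-like cells had 48.5, 22.7, 52.5 and 99.2 CPM in replicates 1 to 4, mural-like cells 20.6, 23.5, 72.7 and 72.3 CPM, and endothelial-like cells 22.8, 34.5, 40.9 and 16.6 CPM. Podocyte-like cells had 16.3, 23.3, 18.1 and 24.4 CPM. These 4 types overlapped. The parietal-like level passed the test against the mean of the other types (log2 fold change 1.35, SE 0.40, adjusted p = 0.01625), from 23 UMIs, but it missed it without replicate 1 (adjusted p = 0.15755) and without replicate 4 (adjusted p = 0.13941). Tubular-like cells, at 4.35 ± 3.47 CPM (SD, n = 4) from 9 UMIs, were below each of the other 4 types, with no overlap between libraries. Their log2 fold change was -2.78 (SE 0.57, adjusted p = 4.2713e-08). Tfpi in mural-like cells had a log2 fold change of 1.19 (SE 0.47, adjusted p = 0.078621).

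Over the 20 sums of 5 types and 4 libraries, the genes with the pattern most like each member on a log2(CPM + 10) scale were sought by Pearson's r. F3 was closest to Cyr61 (r = 0.96), Il34 and Cryab. Thbd was closest to Pi16 (r = 0.98), Adgrl4 and Shank3, Procr to Gm7676 (0.99), Ramp3 and Il2rg, and F8 to Prkch (0.97), Shank3 and Arap3. Plat was closest to Pcsk5 (0.98), Gas5 and Slc9a3r2, and Tfpi to Tppp3 (0.87), Fstl1 and Fads3. Among the members themselves r was 0.94 for Thbd with F8, 0.91 for Thbd with Procr and -0.72 for Thbd with F3. Sums of 1 library share its depth and the cells of a type share its markers, so these values describe the data and carry no test.

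Endothelial-like cells were then split into subclusters, again without the haemostasis genes. Subcluster 2 (1129 cells) was led by Ehd3, Kdr and Ednrb together with haemoglobin transcripts and is called capillary-like. Subcluster 3 (155 cells) was led by Mgp, Jag1 and Fbln5 and is called arterial-like. Of the 7 arterial markers listed, Mgp and Fbln5 were among its leading genes, and Sox17, Gja5, Gja4, Efnb2 and Hey1 were not. Vcam1, listed as a venous marker, was among them too, so the arterial name is tentative. Subcluster 1 (355 cells), led by Calca, Tspan8 and Fxyd6, is given by its number. Subcluster 0 (203 cells) had Cdkn1c and Sdc4 among its leading genes, and 90.1% of its cells carried markers of 2 types. A further 7 cells led by cell-cycle genes were left out. Plat, Thbd and Procr passed the filter on low counts and were tested, each subcluster against the mean of the other 3.

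Plat separated the endothelial-like subclusters more than any other tested member. The capillary-like subcluster had 3525, 3507, 2618 and 3428 CPM in replicates 1 to 4. Subcluster 1 had 857, 735, 406 and 728 CPM, and the arterial-like subcluster 193, 151, 84.8 and 241 CPM. All 6 pairs of subclusters differed for Plat, where 42.2%, 47.8% and 32.4% of genes did between subcluster 0 and subclusters 1, 2 and 3, 18.7% and 13.7% between subcluster 1 and subclusters 2 and 3, and 21.8% between 2 and 3. None of the ranges above touched, and the capillary-like mean was 4.80 times that of subcluster 1 and 19.5 times that of the arterial-like subcluster. The log2 fold change of subcluster 1 against the capillary-like one was -2.33 (SE 0.17, adjusted p = 5.3554e-17) and that of the capillary-like against the arterial-like one 4.01 (SE 0.35, adjusted p = 3.6188e-19). The capillary-like level was also 205% ± 34.2 (SD, n = 4) of the podocyte-like level in the same library.

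Thbd was highest in subcluster 1, at 668, 833, 1056 and 1245 CPM in replicates 1 to 4. The capillary-like subcluster had 482, 238, 506 and 654 CPM and the arterial-like one 530, 188, 509 and 465 CPM. Subcluster 1 was higher in all 4 libraries and did not overlap with either. Its log2 fold change was 0.98 over the capillary-like subcluster (SE 0.16, adjusted p = 2.5881e-06) and 1.10 over the arterial-like one (SE 0.24, adjusted p = 0.00026659). Capillary-like and arterial-like cells overlapped for Thbd (log2 difference 0.12, SE 0.24, adjusted p = 0.7881). Of the 3 tested members, the capillary-like subcluster had Plat and Procr higher (17.5% of 1552 genes) and subcluster 1 had Thbd higher (11.5%) and Plat lower (11.3%). The arterial-like subcluster had Procr higher (11.7%) and Plat lower (6.31%), and subcluster 0 had Plat higher (23.5%) and Thbd and Procr lower (21.7%). Without cells with markers of 2 types, the capillary-like Procr call (adjusted p = 0.74417) and the Plat call of subcluster 1 (adjusted p = 0.79514) were lost. Subcluster 0 lost 183 of its 203 cells there and was too small to enter that fit. The mean of the other subclusters was thus a different reference, and its part in the lost calls was not tested. The 5 higher calls over the subclusters came to 3 without replicate 4.

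Procr did not separate subclusters 1 to 3. Its levels were 181 ± 66.7 CPM in subcluster 1, 263 ± 39.6 CPM in the capillary-like and 282 ± 191 CPM in the arterial-like subcluster (SD, n = 4), with overlapping libraries. The pairs among these subclusters gave adjusted p from 0.21776 to 0.71059. The arterial-like mean rested on replicate 2, at 565 CPM against 145 to 212 CPM in the others, and its call against the mean of the other subclusters was lost without that library (adjusted p = 0.53908).

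F8 and Vwf were described by UMI counts in the endothelial-like subclusters. Of the 118 endothelial-like F8 UMIs, 106 were in the capillary-like subcluster, at 115, 57.7, 192 and 133 CPM in replicates 1 to 4. Its pooled level of 136 CPM (exact 95% Poisson interval 111 to 164) stood above those of subcluster 1 (11.6 CPM, 2.38 to 33.8) and subcluster 0 (31.5 CPM, 14.4 to 59.9). The arterial-like subcluster had 0 F8 UMIs, with an exact 95% Poisson upper limit of 28.6 CPM. The pooled capillary-like level was 5.82 times the floor that 3 UMIs over the 4 libraries give there. F8 did not pass the filter on low counts here. Without that filter, edgeR gave the capillary-like subcluster an adjusted p of 2.6555e-13. Of the 9 endothelial-like Vwf UMIs, 5 were in 4 arterial-like cells, in replicates 1, 3 and 4, 3 were in capillary-like cells and 1 was in subcluster 0. The pooled Vwf level was 38.8 CPM (12.6 to 90.5) in the arterial-like and 3.84 CPM (0.791 to 11.2) in the capillary-like subcluster, and these intervals, which cover counting error only, did not overlap. Subcluster 1 had no Vwf UMI in 355 cells. Its exact 95% Poisson upper limit of 14.2 CPM overlapped the arterial-like interval.

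**Figure D2:**
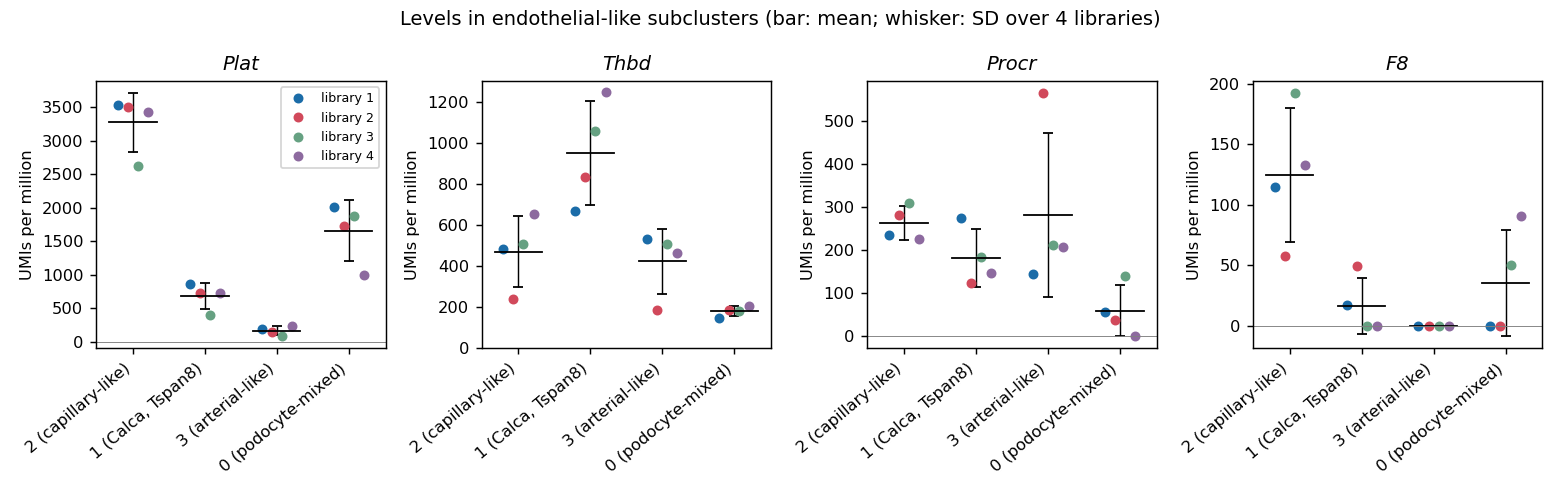
Level in CPM of Plat, Thbd, Procr and F8 (y axes) in 4 endothelial-like subclusters (x axis), with a dot for each of the 4 libraries, a bar at their mean and a whisker for their SD. Plat and F8 are highest in the capillary-like subcluster and Thbd in subcluster 1, while Procr overlaps between subclusters 1, 2 and 3.

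Because podocyte markers were present in every type, Plat and F3 outside podocyte-like cells were set beside the summed podocyte markers other than Podxl, among them Nphs1, Synpo, Wt1 and Cdkn1c. Each is given as a percentage of the podocyte-like level in the same library. In tubular-like cells Plat stood at 11.96% ± 3.38 and the markers at 9.94% ± 2.58 (SD, n = 4). In arterial-like cells Plat stood at 10.4% ± 3.69 and the markers at 6.50% ± 2.15. On these means Plat was within a few percentage points of the podocyte markers in both. In arterial-like cells Plat was above the markers in replicates 1, 2 and 4 (13.6% against 5.56% in replicate 4). It was below them in replicate 3 (5.27% against 6.88%). Subcluster 1 differed, with Plat at 42.8% ± 13.1 and the markers at 5.37% ± 1.67. Mural-like cells had Plat at 31.5% ± 14.6 and the markers at 16.5% ± 5.95. The part of podocyte RNA in the Plat and F3 values outside podocyte-like cells was not tested.

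F3 in the same measure stood below the markers in the capillary-like subcluster, at 2.60% ± 1.75 against 5.52% ± 0.778, from 3 UMIs. In all endothelial-like cells F3 stood at 17.8% ± 4.16 and the markers at 18.5% ± 4.01, and 28 of the 35 endothelial-like F3 UMIs lay in the podocyte-mixed subcluster 0. On these means F3 was no higher than the podocyte markers in endothelial-like cells as a whole, but in replicate 4 it was (22.4% against 13.9%). Tubular-like cells had F3 at 33.1% ± 8.19 and mural-like cells at 41.2% ± 13.1, above their markers in all 4 libraries. Parietal-like cells had F3 at 167% ± 28.4 and the markers at 62.6% ± 12.2. Plat there was at 71.8% ± 16.6, near the markers.

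**Figure D3:**
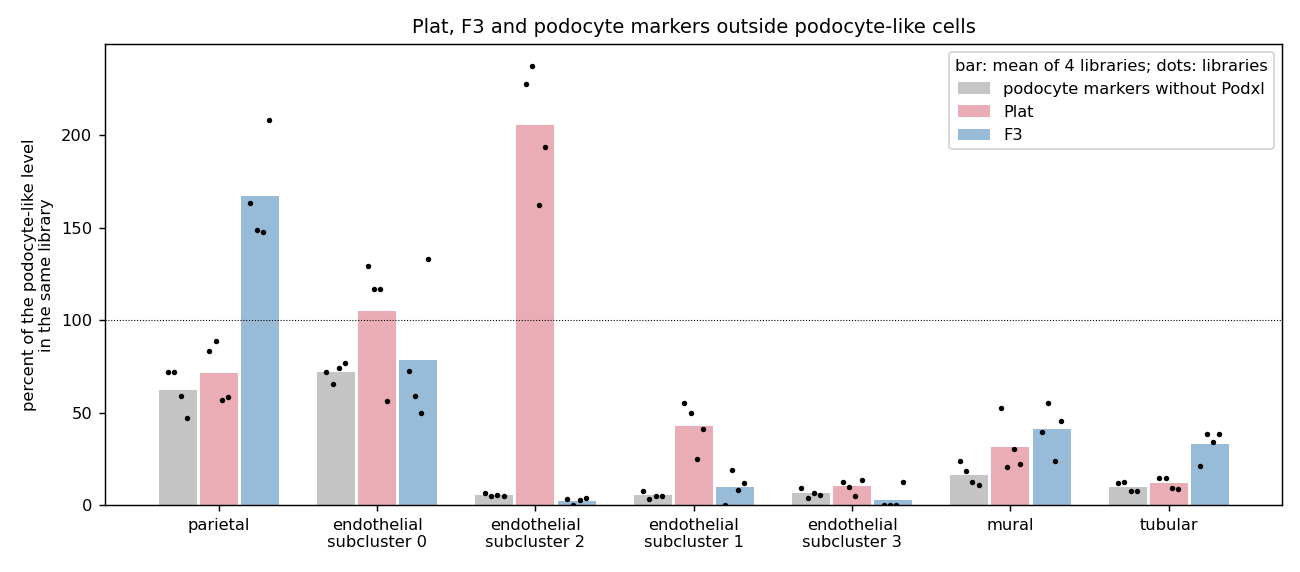
Percentage of the podocyte-like level in the same library (y axis) for podocyte markers without Podxl, Plat and F3 in 7 groups of cells (x axis), with bars at the mean of 4 libraries and a dot per library. Plat exceeds the markers by the widest margin in the capillary-like subcluster 2, and F3 does so in parietal-like cells, at a mean of 167%.

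Of 50 other haemostasis genes, 38 had a UMI in a kept cell and 16 were tested. Serpine2, which encodes the protease inhibitor protease nexin 1, was at 923 ± 230 CPM in mural-like cells and 57.7 ± 14.1 in endothelial-like cells (SD, n = 4), with no UMI in parietal-like cells.

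Genes that bind plasminogen activators or plasminogen at the cell surface had different distributions. Plaur, the urokinase receptor, stood at 261 ± 70.3 CPM in endothelial-like and 1.84 ± 1.36 CPM in podocyte-like cells, with a log2 fold change of 5.69 (SE 0.48, adjusted p = 2.7469e-40). S100a10 and Anxa2 form the annexin complex that binds Plat and plasminogen on cell surfaces. S100a10 was highest in endothelial-like cells (log2 fold change 2.38, SE 0.13, adjusted p = 1.2871e-16) and Anxa2 in podocyte-like cells (1.44, SE 0.09, adjusted p = 3.2196e-30). Within endothelial-like cells Plaur was higher in the capillary-like subcluster (2.001, SE 0.30, adjusted p = 9.6496e-10) and S100a10 in subcluster 1 (1.16, SE 0.11, adjusted p = 2.2089e-12). Of the 9 other haemostasis genes tested there, 2 were higher and 2 lower in the capillary-like subcluster (17.5% and 15.7% of 1552 genes), and 5 and 1 in subcluster 1 (11.5% and 11.3%). In the arterial-like subcluster 0 and 1 were (11.7% and 6.31%), and in subcluster 0 there were 3 and 3 (23.5% and 21.7%).

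Among genes of the anticoagulant and thrombin pathways, Pros1, which encodes the protein C cofactor protein S, was higher in podocyte-like (1.53, SE 0.11, adjusted p = 8.1998e-29) and parietal-like cells (1.31, SE 0.16, adjusted p = 6.2905e-11). It was thus higher in types in which Thbd and Procr were near 0. F2r, the thrombin receptor PAR1, was higher in podocyte-like cells (1.02, SE 0.11, adjusted p = 2.2814e-14). Entpd1, an enzyme that degrades ATP and ADP at the cell surface, and Mmrn2, an endothelial extracellular matrix protein, were higher in endothelial-like cells (3.95, SE 0.53, adjusted p = 1.2266e-18, and 6.26, SE 0.50, adjusted p = 3.0101e-47). Entpd1 was also higher in mural-like cells (4.44, SE 0.58, adjusted p = 4.1398e-13). Kng2, a kininogen gene, was higher in tubular-like cells (7.28, SE 0.31, adjusted p = 3.479e-85). Gas6, a vitamin K-dependent ligand related to protein S, had the reverse order to Pros1 between podocyte-like and tubular-like cells. It stood at 263 ± 20.2 CPM in tubular-like, 172 ± 38.8 in endothelial-like and 2.78 ± 1.74 in podocyte-like cells (SD, n = 4). In parietal-like cells, where Pros1 was higher, Gas6 was not lower (0.23, SE 0.30, adjusted p = 0.68154). By type, 11 of the 16 were higher and 4 lower in endothelial-like cells, 6 and 6 in podocyte-like, 5 and 1 in parietal-like, 3 and 4 in mural-like, and 3 and 7 in tubular-like cells, beside the shares of all genes given above. The median log2 fold change of the 16 in endothelial-like cells was 0.70, and that of all genes 0.02.

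The bulk libraries ask how the members fared between whole glomeruli and dissociated, fixed and sorted cells, with 1 library on each side, 28407317 and 24555632 reads on genes, and no replicate check. Dissociation, fixation, sorting and RNA input differ together between them and cannot be told apart. In bulk RNA, fewer cells of a type and less RNA per cell cannot be told apart either. Levels are CPM after TMM scaling, and a change counts here when it reaches 2-fold. Of the 7 members 1 was higher in dissociated cells (10.6% of 12692 genes with at least 100 counts) and 3 were lower (19.1%). These member counts were the same without TMM, where 759 genes were higher and 3180 lower, against 1347 and 2423 with it. F3 went from 750 to 4579 reads, or from 23.8 to 207 CPM, 8.69-fold higher (95% counting interval of the log2 ratio 3.01 to 3.24). It was the member with the largest ratio in either direction.

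The 3 members lower in dissociated cells were F8, Vwf and Thbd. F8 went from 2666 to 372 reads (5.002-fold lower), Vwf from 523 to 91 reads (3.97-fold lower) and Thbd from 11543 to 3138 reads (2.58-fold lower). All of them had their highest Drop-seq level in endothelial-like cells. In the same libraries 7 of 9 endothelial markers were at least 2-fold lower, with a sum of 5353 CPM in whole and 1747 CPM in dissociated glomeruli, and the sum of 5 capillary markers was 4830 and 1018 CPM. The 7 podocyte markers went the other way, from 22712 to 42982 CPM. The part of this shift in cell content in the members' ratios was not tested. Procr, although endothelial-like in Drop-seq, went from 1032 to 891 reads, 1.23-fold higher after scaling. Plat went from 119833 to 130595 reads (1.56-fold higher) and Tfpi from 1848 to 1510 reads (1.17-fold higher). The directions for Procr and Tfpi rest on the scaling: without TMM their log2 ratios were -0.0017 and -0.08, and the median of all genes moved from -0.02 to -0.32.

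**Figure D4:**
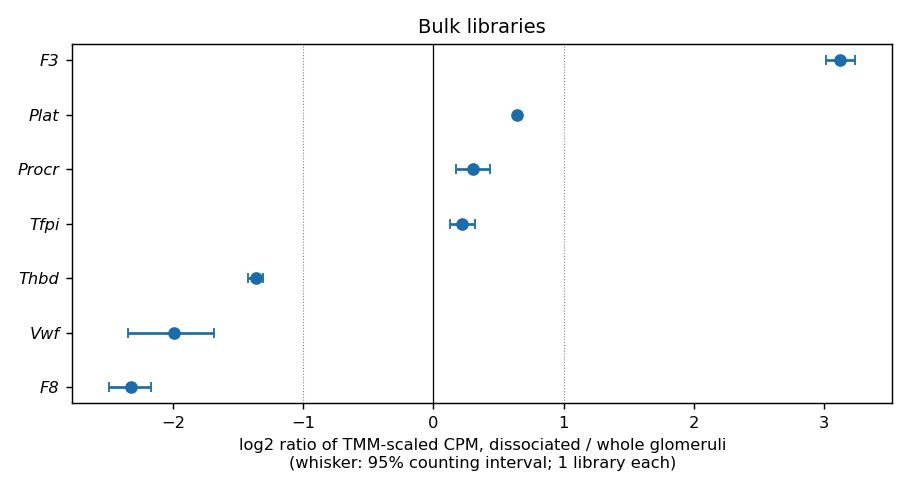
Log2 ratio of TMM-scaled CPM in dissociated over whole glomeruli (x axis) for the 7 members (y axis), 1 library on each side, with 95% counting intervals and dotted lines at 2-fold. F3 lies at 3.12, Plat, Procr and Tfpi between 0.22 and 0.64, and Thbd, Vwf and F8 at -1.36 to -2.32.

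Scaled to library size and to kilobases of exon (RPKM), the scale on which genes can be compared, whole glomeruli had 676 RPKM for Plat, 109 for Thbd, 17.9 for Procr, 11.9 for Tfpi, 10.4 for F3, 9.47 for F8 and 1.15 for Vwf. In dissociated cells F3 stood at 73.8 and moved from the fifth to the second place, behind Plat at 852. Thbd followed at 34.3, Procr at 17.9, Tfpi at 11.3, F8 at 1.53 and Vwf at 0.231. In the Drop-seq libraries, summed over all barcodes, F3 had 90.4 to 132 CPM and Thbd 14.3 to 86.7 CPM. F3 was the higher one in every library.

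Among the other haemostasis genes with at least 100 bulk reads, 6 of 24 were at least 2-fold higher and 9 lower in dissociated cells. Of all 12692 genes with as many reads, 10.6% were higher and 19.1% lower. Among those higher were Vkorc1, a vitamin K reductase gene (log2 ratio of dissociated over whole 1.86), S100a10 (1.81), Anxa2 (1.38) and Plaur (1.21). Pros1 stood at 1.12. The largest ratios in the other direction were those of Serpinf2, the antiplasmin gene (583 to 3 reads), F13b (121 to 0 reads), Serpine2 (21426 to 526 reads), Proc (179 to 5 reads) and Plau, the urokinase gene (3748 to 258 reads). Serpine2 was highest in mural-like cells in Drop-seq, which were led by smooth muscle and renin genes. The sum of 7 smooth muscle and renin markers was 524 CPM in whole and 449 CPM in dissociated glomeruli, and that of 5 mesangial markers 2744 and 157 CPM. Their part in the Serpine2 ratio was not tested. F3 and Plaur were each more than 2-fold higher in dissociated cells. Plaur was endothelial-like in Drop-seq, and the endothelial markers were lower in dissociated cells. The cause of either rise was not tested and cannot be told from 1 library on each side.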

How the data were processed

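Drop-seq values were deposited as counts of UMIs per gene and barcode (the UMI unit is inferred from the assay that the protocols name) and bulk values as read counts per gene, both produced by the authors. STAR and HTSeq are named in the submitters' processing notes; their versions, the genome build, annotation and strand setting are not given in the sources used here. HTSeq's summary lines (9.68% and 6.14% of reads on no feature) stayed out of library sizes.

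The members and lists were chosen with earlier results of these data known. Cells were clustered with scanpy 1.11.5 (2000 variable genes, 30 components, 15 neighbours, Leiden resolution 1.0; endothelial-like cells 1000 genes, resolution 0.5). No doublet caller was run; 594 cells (4.25%) with at least 3 distinct markers of another type were left out in an alternative. UMIs were summed per library and type, keeping types with 20 or more cells in 3 or more libraries. The sums were compared by edgeR 4.0.16 (filterByExpr, TMM, robust quasi-likelihood fit, library as a block since the types of a library are the same sample, Benjamini-Hochberg) on R 4.3.3, checked on simulated counts. In that check, 38.0% of simulated 2-fold changes were recovered in mural-like and 46.8% in parietal-like cells. The other types recovered 75.3% to 96.5%, so a missing call says less in mural-like and parietal-like cells. Alternatives included DESeq2 1.42.0. SEs come from the fitted model. Bulk ratios used TMM and a prior count of 2. Named genes are the 7 members in full; of the other haemostasis genes, those past the threshold and on the same side in every library, up to 6 higher and 4 lower per type; and the 5 largest bulk ratios each way. The bulk value of Pros1 and the pair of podocyte-like clusters were chosen after their values were seen. Some genes that this rule takes are not reported here. Coordinates are GENCODE vM21 positions.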

Additional observations from a re-analysis of the deposited data

Results flagged for a closer look

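Of 38 sets of 4 libraries with at least 10 UMIs, 3 held a library far from the other 3, where chance gives about 1 in 20. Thbd in mural-like cells was 72.0 CPM in replicate 1, and the next library had 29.1 CPM. Plat in the capillary-like subcluster 2 was 2618 CPM in replicate 3, with the others from 3428 to 3525 CPM. Procr in the arterial-like subcluster 3 was 565 CPM in replicate 2, with the next at 212 CPM.

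Signal also appeared in cells outside the comparisons. The 64 immune-like cells held 5 F3 UMIs (80.0 CPM) and 40 Plat UMIs (639.7 CPM), above the 48.0 CPM that 3 UMIs give. Podocyte markers without Podxl stood at 46.0% ± 5.09 (SD, n = 4) of the podocyte-like level there and Plat at 44.0% ± 21.2. The 1472 barcodes left out for few genes or high mitochondrial shares held Plat at 452 CPM, Thbd at 47.4, F3 at 28.0, Procr at 18.0, F8 at 7.90 and Tfpi at 2.87 CPM, above the 2.15 CPM that 3 UMIs give.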

How the results depend on the processing

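Every alternative here was planned. The endothelial-like calls of Thbd, Plat, Procr and F8, the parietal-like and podocyte-like calls of F3, the podocyte-like call of Plat, and the calls of Plat in subcluster 2 and Thbd in subcluster 1 kept their direction and passed the threshold under each alternative that gave a value. Fitted without the library as a block (no replicate block), these calls held, at 10 higher and 8 lower calls over the cell types against 10 and 10, and 4 and 4 over the subclusters against 5 and 4.

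The parietal-like call of Tfpi was lost without the filter on low counts (log2 fold change 1.14), at 500 genes per cell (1.08) and against all other cells summed (1.26), and ranged from 1.13 to 1.59 without 1 replicate. Procr in subcluster 2 was lost with DESeq2 (0.72) and without cells with markers of 2 types (0.12), and ranged from 0.61 to 0.85 without 1 replicate. Lower calls over the types came to 6 at resolution 0.5 and 5 at 10% mitochondrial UMIs, and to 5 (without replicate 1) to 8 without 1 replicate. The 10% limit left out most tubular-like cells, whose median mitochondrial share was 13.9%, against 4.27% to 6.81% in the other tested types. Tubular-like cells held 4 of the lower calls in the main fit. Higher calls over the subclusters came to 3 with DESeq2 and 2 without cells with markers of 2 types (lower calls 2), and to 3 (without replicate 4) to 5 without 1 replicate. Without cells with markers of 2 types, subcluster 0 was too small to enter the fit. Its 1 higher and 2 lower calls of the main fit could not occur there, and the other subclusters had a different reference mean. Plat in parietal-like cells turned to -0.35 at 10% mitochondrial UMIs and -0.45 against all other cells summed, Thbd in tubular-like cells to 0.33 without replicate 1 (range without 1 replicate -2.08 to 0.33), and Procr in subcluster 1 to 0.73 at resolution 0.3, which merged subclusters 1 and 3. Without cells with markers of 2 types, Plat in subcluster 1 was at -0.12. At 1.5-fold, 2 members were higher in bulk. Over all bulk genes, 2183 were higher and 3991 lower at 10 counts, and 2874 and 3547 at 1.5-fold, against 1347 and 2423. The causes were not tested. Depth limits the rare members: F8, Vwf, F3 and Tfpi did not pass the filter on low counts in the subclusters.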
